A study of Bos taurus with 5 samples.

Results

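The reciprocal crosses of Holstein and Iranian native cattle, 50CSH and 50CSN, were compared by RNA sequencing of leukocytes from peripheral blood. They are 2 of the 5 libraries of the series, and they were taken by their population names in the deposited table of pairwise comparisons. Animals of 50CSH were sired by Holstein bulls on native cows, those of 50CSN by native bulls on Holstein cows, so that each cross carried 50 percent of either breed. The other 3 libraries, used here as reference points, were the purebred populations labelled N and H and the crossbred population 75C, which was 75 percent Holstein and 25 percent native. The letters N and H are not explained in the labels. The names of the crosses use N for a native and H for a Holstein sire, and the purebreds were read in the same way. Each population had 1 library, and the sources used here give no age, sex or number of animals behind a library. No difference between the crosses therefore has a replicate check, and none was tested.

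Reciprocal crosses separate the breed of the father from the breed of the mother. Their autosomes carry the same mixture of breeds. They differ in which parent passed each allele on, which matters at imprinted genes, where the copy from one parent is silenced. They also differ in the mitochondrial genome, which comes from the dam, and in sons they differ in the single X chromosome, which comes from the dam as well. The dam further provides the uterine environment and the colostrum.

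Levels are the FPKM values deposited by the authors, for 72812 assembled transcripts at 31898 loci. FPKM counts fragments per kilobase of a transcript after scaling between libraries. The sources used here do not give how that scaling was done. Transcripts were summed over a locus, and the 13546 loci that averaged at least 1 FPKM in the crosses were kept. Of these, 11421 carried an Ensembl transcript ID. The summed FPKM was 852903 in 50CSN and 789089 in 50CSH. The sources used here give no read totals. Among 2484 low loci with a single transcript, the most frequent ratio of 50CSH to 50CSN was 1.13, found at 245 loci, and was taken as what 1 fragment is worth in 50CSH relative to 50CSN. Lesser peaks lay near 0.566 at 112 loci and 2.26 at 95 loci. The files do not pair Ensembl IDs with gene names, and loci are given by ID and by position as deposited, in a genome build that the sources used here do not give. For the same reason, the leukocyte label could not be checked against marker genes. In bulk RNA, fewer cells of a type and less RNA per cell cannot be told apart.

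The crosses had similar leukocyte transcriptomes. Across loci, which are not independent replicates, Pearson's r of log2(FPKM + 1) was 0.96 over the 13546 loci, and 96.9 percent of loci lay within 2-fold on that scale. At least 2-fold higher in 50CSH were 187 loci, or 1.38 percent of those kept, and 233 loci, or 1.72 percent, were at least 2-fold lower. A difference of 4-fold was reached by 43 higher and 56 lower loci. The median difference, 50CSH minus 50CSN, was 0.02 in log2 units, with quartiles of -0.14 and 0.16.

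Fewer loci separated the crosses from each other than separated any other pair of populations. The 420 loci made up 3.10 percent of those kept, whereas the other 9 pairs had between 507 and 883 loci, or 3.65 to 6.32 percent, counted by the same rule for each pair. The purebreds N and H differed at 525 loci. The median absolute difference was 0.15 between the crosses and 0.16 to 0.27 in the other pairs. Pairs that contain one of the crosses share that library with this comparison, and no interval can be given for the order.

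**Figure D1:**
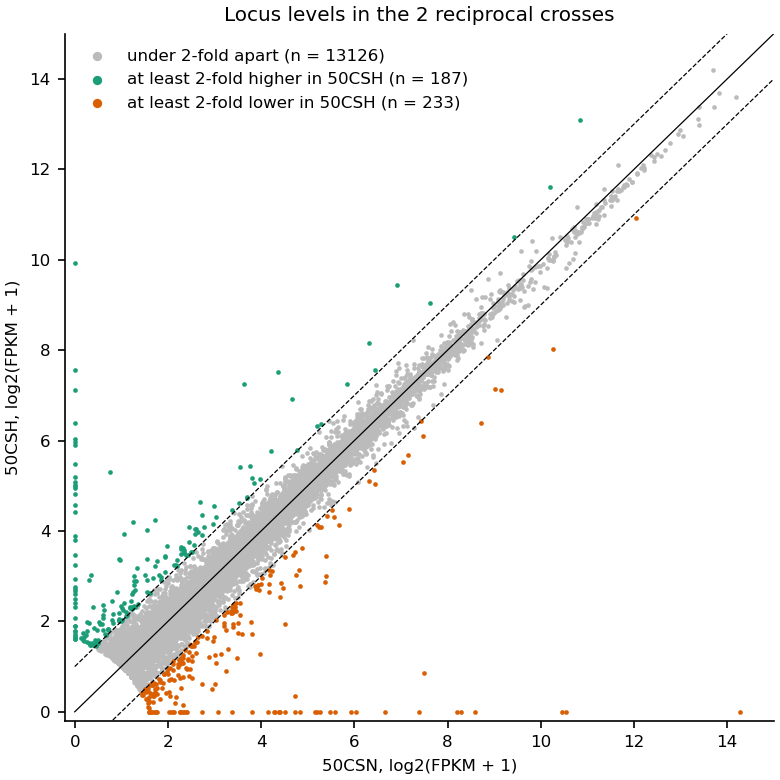
Levels of the 13546 kept loci in 50CSN (horizontal axis) and 50CSH (vertical axis), both as log2(FPKM + 1), with loci at least 2-fold apart in colour. The cloud follows the diagonal, with 187 loci at least 2-fold higher and 233 at least 2-fold lower in 50CSH.

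Loci that stood apart were more frequent among short, single-transcript and unannotated loci. Of loci without an Ensembl ID 10.6 percent were at least 2-fold apart, against 1.71 percent of loci with one. The share was 8.56 percent at loci with a single transcript and 1.13 percent at loci with several. Of 227 loci with a span under 300 nt 25.1 percent stood apart, against 2.73 percent of longer ones. Short loci were more often higher in 50CSH, 33 against 24, and longer loci more often lower, 209 against 154. Loci on unplaced sequence stood apart in 9.35 percent and autosomal loci in 2.67 percent.

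The share also varied with level. It was 6.49 percent at a mean of 1 to 2 FPKM, 3.22 percent between 5 and 10 FPKM and 1.63 percent between 50 and 200 FPKM. It was higher again, 3.50 percent, among the 428 loci of 200 FPKM or more, where 6 loci were higher and 9 lower in 50CSH. In these abundant loci the median difference was -0.11. Among the 9470 loci with both an Ensembl ID and several transcripts, 0.950 percent stood apart, 33 higher and 57 lower.

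**Figure D2:**
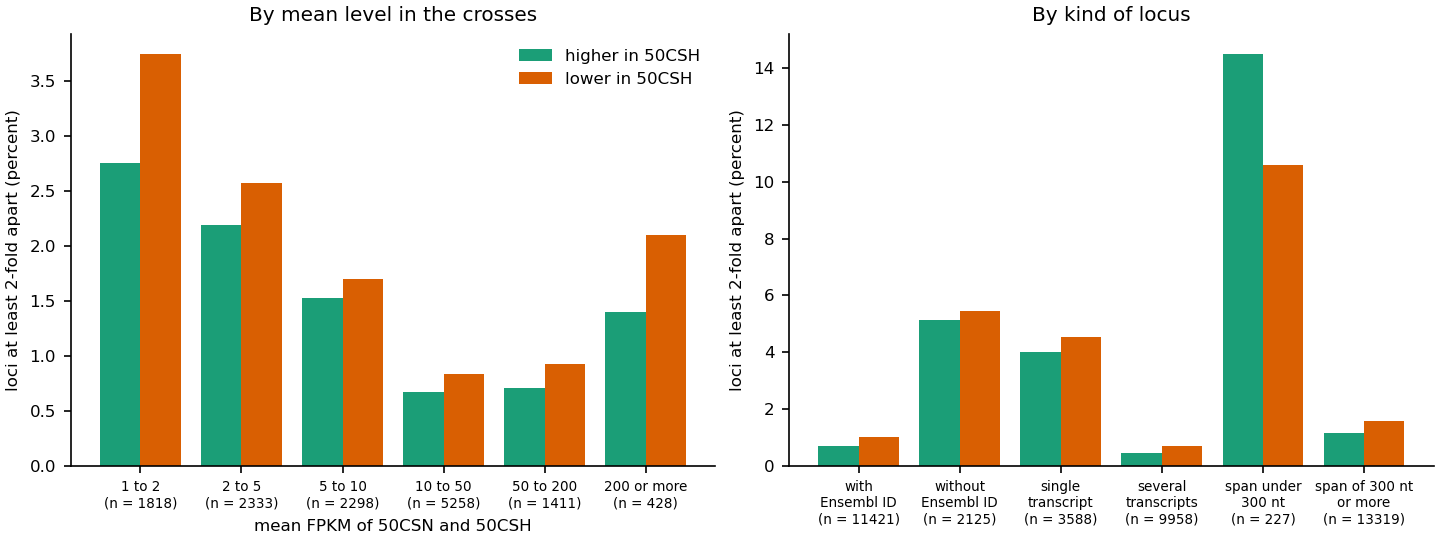
Percentage of kept loci at least 2-fold higher (green) or lower (orange) in 50CSH than in 50CSN, by mean FPKM of both crosses (left) and by kind of locus (right), with the number of loci in each class under the bars. The share falls with level up to 50 FPKM and is highest at spans under 300 nt.

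Levels outside the range of the other libraries were found in either cross. These loci were selected for a gap between the crosses, which by itself tends to place a cross outside that range. The same holds for the loci ranked by this gap below. Of the 420 loci, 113 had a level outside the range of N, H and 75C in 50CSH alone, 113 in 50CSN alone, and 140 in both. At the remaining 54 loci both crosses lay within the range of the other libraries. Of the 13546 kept loci, 33 in 50CSN and 33 in 50CSH were at least 2-fold above all 4 other libraries. Only 11 of the 33 in 50CSN and 15 of the 33 in 50CSH were above 0 in all 5 libraries. At least 2-fold below all 4 were 27 loci in 50CSN and 23 in 50CSH. Of these, 6 in 50CSN and 7 in 50CSH were listed at 0 in that cross.

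Among loci that carried an Ensembl ID and were above 0 in both crosses, the 12 highest in 50CSH relative to 50CSN differed by 1.57 to 4.54 in log2 units. In 8 of them 50CSH was the highest of the 5 libraries, and in 7 of them 50CSN was the lowest. The widest gap was on chromosome 13, at a locus in the span from 67902547 to 67917809 with ENSBTAT00000059644. It was at 0.702 FPKM in 50CSN and 38.5 in 50CSH, and at 0.930 in N, 0.785 in H and 1.06 in 75C. Only 50CSH stood apart there. On an unplaced sequence, ENSBTAT00000044044 had the same form, at 1.91 FPKM in 50CSN and 9.42 in 50CSH, and at 2.44 in N, 2.05 in H and 3.07 in 75C. ENSBTAT00000045033, on chromosome 23 from 31711586 to 31714398, stood at 0.861 FPKM in 50CSN and 5.26 in 50CSH, and at 3.68 in N, 1.78 in H and 1.21 in 75C. Here the other libraries spread between the crosses.

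At other loci of this set it was 50CSN that was low. ENSBTAT00000059567, on an unplaced sequence, was at 9.41 FPKM in 50CSH and 0.918 in 50CSN, and at 6.88 in N, 7.69 in H and 25.9 in 75C. ENSBTAT00000060471, on chromosome 17 from 65896286 to 65896426, stood at 42.3 FPKM in 50CSH and 12.6 in 50CSN, and at 126 in N, 66.8 in H and 100.1 in 75C. ENSBTAT00000012640, on another unplaced sequence, was at 6.43 FPKM in 50CSH and 1.41 in 50CSN, and at 7.88 in N, 9.41 in H and 17.1 in 75C. In all 3, 50CSN was below the 4 other libraries. The same held on chromosome 7 from 13646929 to 13647801, where ENSBTAT00000056840 stood at 24.3 FPKM in 50CSN, 120.4 in 50CSH and 73.2 to 159.8 in the other libraries.

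Other loci had one cross at the level of a purebred. ENSBTAT00000052125, in a span of chromosome 23 from 28472237 to 28685278, stood at 5.68 FPKM in 50CSN and 19.3 in 50CSH, and at 4.51 in N, 19.3 in H and 4.47 in 75C. ENSBTAT00000010617, on chromosome 5 from 81256868 to 81266335, stood at 1.43 FPKM in 50CSN and 7.001 in 50CSH, and at 0.280 in N, 4.98 in H and 0.709 in 75C. In both, H and the Holstein-sired cross were the high libraries. The other loci at least 2-fold apart in that span of chromosome 23 were lower in 50CSH. Among them, ENSBTAT00000024888 stood at 292 FPKM in 50CSN and 243 in N, with a 0 for H, 75C and 50CSH. Loci that share a span can share reads. N and the cross with a native dam were the high ones on chromosome 10 from 23981041 to 24004113, where ENSBTAT00000053268 was at 5.45 FPKM in 50CSN and 23.8 in 50CSH, and at 23.4 in N and 6.45 in 75C, with H listed at 0. Chromosome 10 of cattle holds the genes of the alpha and delta chains of the T cell receptor, but the files give no gene name for this locus.

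The 12 lowest loci in 50CSH relative to 50CSN differed by 1.87 to 6.64 in log2 units. In 8 of them 50CSN was the highest of the 5 libraries, and in 4 of them 50CSH was the lowest. On the X chromosome from 81984939 to 81986965, ENSBTAT00000024387 was at 25.3 FPKM in 50CSN and 0.274 in 50CSH, and at 0.114 in N and 0.136 in H, with 75C listed at 0. Its level was near 0 outside 50CSN. ENSBTAT00000002603, on chromosome 2 from 21547767 to 21548204, stood at 6.73 FPKM in 50CSN and 0.421 in 50CSH, and at 1.43 in N, 1.06 in H and 1.38 in 75C. ENSBTAT00000024424, a single-transcript locus on an unplaced sequence, was at 562 FPKM in 50CSN and 139 in 50CSH, and at 179 in N, 123 in H and 160.2 in 75C. In both cases 50CSN stood above the 4 other libraries.

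At a further group of these loci the crosses had the order of their sire breeds. ENSBTAT00000044482, on chromosome 2 from 97468246 to 97470058, had the widest gap, at 179.9 FPKM in 50CSN and 0.819 in 50CSH, and at 133 in N, 10.5 in H and 12.8 in 75C. ENSBTAT00000039232, in a span of chromosome 7 from 42115902 to 42827995, stood at 14.6 FPKM in 50CSN and 1.42 in 50CSH, and at 22.1 in N, 2.01 in H and 5.35 in 75C. ENSBTAT00000040802, in a span of chromosome 19 from 14238538 to 14343531, stood at 40.3 FPKM in 50CSN and 6.30 in 50CSH, and at 58.2 in N, 12.8 in H and 1.47 in 75C. At all 3 the libraries of N and of the native-sired cross were the high ones. ENSBTAT00000052247 on chromosome 7, from 14409497 to 14416230, was low throughout and split the same way, at 4.00 FPKM in 50CSN and 0.102 in 50CSH, and at 2.47 in N, 0.0981 in H and 0.102 in 75C.

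A different order held at ENSBTAT00000011656, in a span of chromosome 18 from 57394206 to 57566804. It was at 41.0 FPKM in 50CSN and 9.82 in 50CSH, and at 54.5 in N, 54.6 in H and 24.7 in 75C, so that 50CSH alone was below the other libraries. ENSBTAT00000062717, in a span of chromosome 3 from 1123187 to 1302891, stood at 514 FPKM in 50CSN and 139.6 in 50CSH and was listed at 0 in N, H and 75C. An unplaced locus with ENSBTAT00000050785 was likewise listed at 0 in those 3 libraries, with 119 FPKM in 50CSN and 693 in 50CSH. Both were single-transcript loci seen in the reciprocal crosses only.

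**Figure D3:**
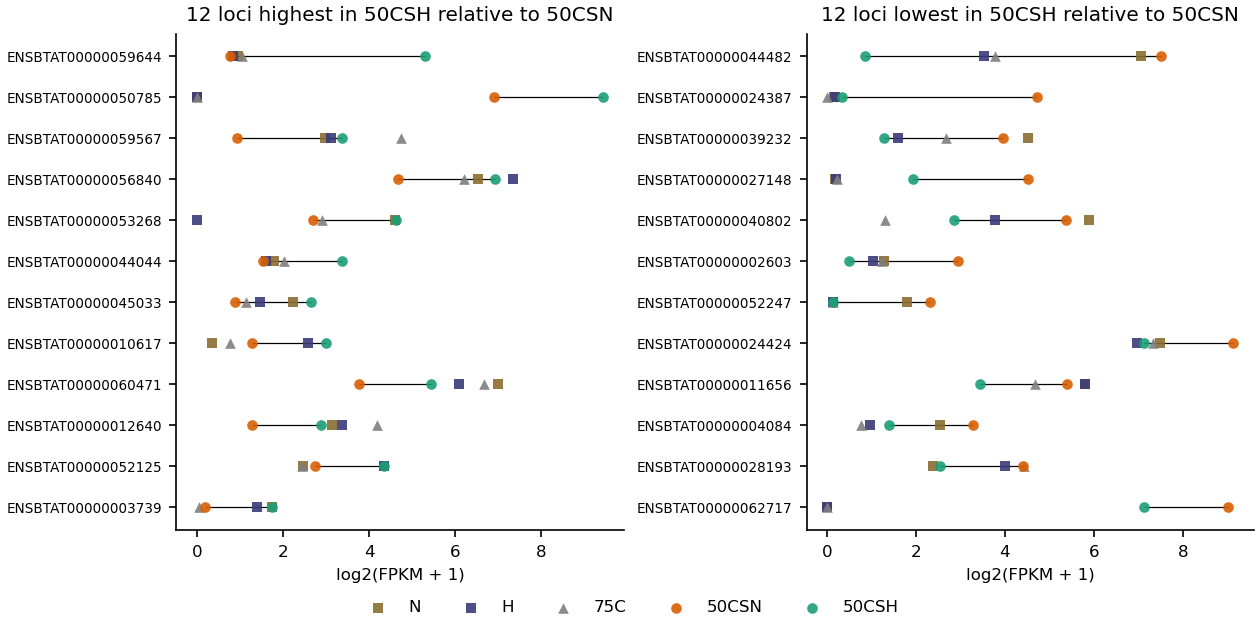
Levels in the 5 libraries, as log2(FPKM + 1), of the 12 loci highest (left) and the 12 lowest (right) in 50CSH relative to 50CSN among annotated loci above 0 in both crosses, with a line joining the crosses. In 8 loci of the left panel 50CSH is the highest library and in 8 of the right panel 50CSN is.

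Some loci were listed at 0 in one of the crosses, 37 in 50CSN and 48 in 50CSH. An exact 0 in such tables can be a failed estimate, and 79 of the 85 loci had a single transcript. No fold is therefore printed for any of these loci. All 85 are nevertheless among the 420 loci counted as at least 2-fold apart, 37 as higher and 48 as lower in 50CSH. The filter on the mean level by itself puts a locus with a 0 past 2-fold. Without them 335 loci stood apart, 150 higher and 185 lower. The highest level opposite a 0 belonged to a locus of chromosome 18 without an Ensembl ID, in the span from 61508086 to 61564471. It was listed at 0 in 50CSH and stood at 19859 FPKM in 50CSN, and at 3865 in N, 10473 in H and 12800 in 75C. This locus alone made up 2.33 percent of the summed FPKM of 50CSN and 31.1 percent of the gap in summed FPKM between the crosses. A second locus of the same window, on chromosome 18 from 61904621 to 61904726, went the other way, at 1848 FPKM in 50CSN and 8731 in 50CSH, and at 9020 in N, 5201 in H and 10526 in 75C.

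Several of the zeros were shared with other libraries. ENSBTAT00000062532, in a span of chromosome 12 from 36758959 to 36836146, stood at 970.1 FPKM in 50CSH and listed at 0 in the other 4 libraries. ENSBTAT00000059585, in a span of chromosome 1 from 59068614 to 59190324, stood at 1402 FPKM in 50CSN and listed at 0 in the other 4. ENSBTAT00000060504 on chromosome 7 and ENSBTAT00000060438 on chromosome 3 were above 0 only in 50CSH, at 64.2 and 61.9 FPKM. These loci were private to one cross in the deposited table.

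Others divided the libraries by a parent. ENSBTAT00000059182, on chromosome 10 from 12064834 to 12064949, stood at 385 FPKM in 50CSN and 691 in N, with a 0 for H, 75C and 50CSH, the order of the sire breeds. A locus without an Ensembl ID on chromosome 12, from 28069409 to 28069528, stood at 1496 FPKM in 50CSN, 312 in N and 1275 in 75C, with a 0 for H and 50CSH. ENSBTAT00000059956, on chromosome 16 from 38514884 to 38514999, stood at 138.1 FPKM in 50CSH and 173 in N, with a 0 for H, 75C and 50CSN, the order of the dam breeds. All 3 spans are shorter than 300 nt.

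On one sequence not placed on a chromosome, 4 of 5 loci were listed at 0 in N and 50CSN and present in the other libraries. The locus with a span of 604 nt stood at 29.7 FPKM in 50CSH, 28.5 in H and 123.5 in 75C. The one of 181 nt stood at 30.7 FPKM in 50CSH, 23.4 in H and 106.1 in 75C. Levels were lower at the locus of 226 nt, with 5.76 FPKM in 50CSH, 5.48 in H and 19.1 in 75C, and at the locus of 466 nt, with 2.72 FPKM in 50CSH, 1.22 in H and 4.35 in 75C. At all 4 the level in 50CSH lay between those of H and 75C. The fifth locus, ENSBTAT00000036965, was above 0 in all libraries, at 3.23 FPKM in 50CSN and 2.95 in 50CSH, and at 1.65 in N, 0.706 in H and 3.02 in 75C. A 0 in N and in the native-sired cross was thus common to 4 neighbouring loci without an Ensembl ID, a block that was chosen after its values were seen.

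The authors' deposited table calls 17 transcripts different between the crosses, 0.0477 percent of the 35653 it tested, 11 higher and 6 lower in 50CSH. In the authors' deposited table all 17 have the smallest p-value it holds, 5e-05, and a q-value of 0.043. Such a test compares these libraries and not the directions of the cross. Of the 17, 9 were listed at 0 in 50CSN and 4 in 50CSH, 7 lay on unplaced sequence and 10 had no Ensembl ID. At 5 of the 17 the mean over both crosses was under 1 FPKM. For scale, 866 of the 13546 kept loci lay on unplaced sequence and 2125 had no Ensembl ID. Those are smaller shares than among the calls, though counted by locus and not by tested transcript. Of the 35653 tested transcripts, 2045 were listed at 0 in one cross only, a much smaller share than among the 17 calls. An unadjusted p-value under 0.05 in the authors' deposited table was reached by 772 tested transcripts, or 2.17 percent.

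Only 4 of the called transcripts were above 0 in both crosses, and all 4 carried an Ensembl ID and lay on unplaced sequence. They were ENSBTAT00000050785 and ENSBTAT00000024424, described above, and a further pair. ENSBTAT00000026431 was at 25.9 FPKM in 50CSN and 5.77 in 50CSH, and at 29.1 in N, 28.5 in H and 22.8 in 75C, so 50CSH was the one low library. ENSBTAT00000004350 was at 194.8 FPKM in 50CSN and 520 in 50CSH, and at 354 in N, 305 in H and 312 in 75C, with the purebreds between the crosses.

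Among the called transcripts listed at 0 in a cross, ENSBTAT00000049988 stood at 5.96 FPKM in 50CSH, 7.40 in N, 2.41 in H and 14.8 in 75C. A transcript of chromosome 18 from 62927492 to 62928161 stood at 5.56 FPKM in 50CSH, 5.49 in N, 8.11 in H and 5.43 in 75C. In both, 50CSN was the single library at 0. ENSBTAT00000040046, on chromosome 15 from 28098021 to 28099741, stood at 5.36 FPKM in 50CSH and 5.27 in 75C, with a 0 for N, H and 50CSN. A chromosome 27 transcript, spanning 6068861 to 6069038, stood at 100.6 FPKM in 50CSN and 16.1 in N, with a 0 for H, 75C and 50CSH. On an unplaced sequence a transcript without an Ensembl ID stood at 186.9 FPKM in 50CSH and 104.6 in H and was listed at 0 elsewhere. The last of these had the order of the sire breeds with H high, and the chromosome 27 transcript with N high.

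Whether the crosses differed in the same way as the breeds of their sires or dams was asked over all loci. The difference of the crosses, 50CSH minus 50CSN, shares no library with that of the purebreds, H minus N. Of the 420 loci at least 2-fold apart between the crosses, 194 had the order of the sire breeds, 201 the order of the dam breeds, and 25 were equal in N and H. The sire order thus made up 46.2 percent. Over the 13384 loci above 0 in these 4 libraries, Pearson's r between both differences was 0.00, against 0.11 with loci listed at 0 included. Of the 300 among them that were at least 2-fold apart in the crosses, 140 had the sire order and 160 the dam order. Neither order was much the more frequent.

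**Figure D4:**
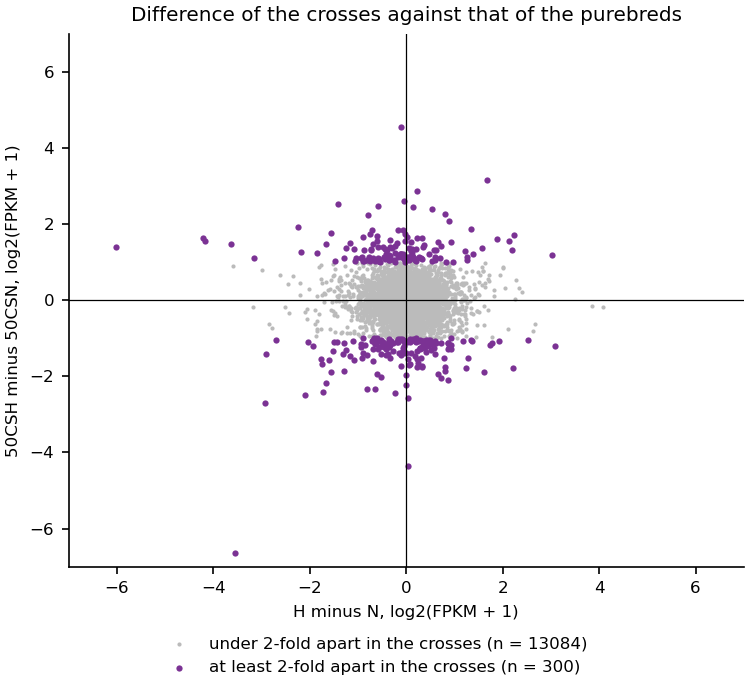
Difference between the crosses (50CSH minus 50CSN, vertical axis) against the difference between the purebreds (H minus N, horizontal axis), both in log2(FPKM + 1), at the 13384 loci above 0 in these 4 libraries; purple points are the 300 loci at least 2-fold apart in the crosses. The purple points spread over all 4 quadrants, 140 with the order of the sire breeds and 160 with that of the dam breeds.

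A smaller number of loci split the 4 libraries cleanly. Of the 13546 kept loci, 50 had H and 50CSH both at least 2-fold from both N and 50CSN, the split by sire breed. At 31 loci H and 50CSN stood at least 2-fold from N and 50CSH, the split by dam breed. The loci are not all separate events, since some in either split share a span or lie side by side. Of the 50, 33 were high on the native side and 17 on the Holstein side. These 17 include the 4 neighbouring loci of one unplaced sequence described above. Of the 31, 19 were high on the native side and 12 on the Holstein side. Zeros were frequent, and 21 of the 50 and 15 of the 31 were above 0 in all 4 libraries. Library 75C, which entered neither rule, lay nearer the Holstein side at 36 of 50 and at 19 of 31 loci. Some of these placements rest on zeros. Of the native-high loci, 75C was listed at 0 at 11 of 33 by sire and 7 of 19 by dam breed. Of the Holstein-high loci it was at 0 at 2 of 17 and 2 of 12. Over all loci kept for each pair, 75C was at least 2-fold from H at 507 and from N at 711. Per transcript the counts were 249 by sire breed and 221 by dam breed.

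Above 0 in all 4 libraries, the sire split included ENSBTAT00000012987, on chromosome 6 from 101727585 to 101770803. It was at 27.3 FPKM in 50CSN and 7.85 in 50CSH, and at 31.6 in N, 8.77 in H and 14.4 in 75C. On the Holstein side was ENSBTAT00000017538 of the X chromosome, from 60276583 to 60303743, at 14.6 FPKM in 50CSH and 5.29 in 50CSN, and at 22.5 in H, 36.6 in 75C and 4.12 in N. An abundant locus without an Ensembl ID, on chromosome 28 from 24718276 to 24739642, stood at 4216 FPKM in 50CSN and 1934 in 50CSH, and at 5143 in N, 2096 in H and 1388 in 75C. At all 3 loci each cross was nearer to the purebred of its sire's breed than to the other purebred.

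The dam split was seen at other loci. ENSBTAT00000037203, on chromosome 14 from 64829665 to 64830135, stood at 22.4 FPKM in 50CSH and 6.91 in 50CSN, and at 20.3 in N, 0.187 in H and 4.99 in 75C. ENSBTAT00000045142, on chromosome 11 from 51004921 to 51007327, stood at 79.1 FPKM in 50CSN and 33.6 in 50CSH, and at 103 in H, 11.3 in N and 35.5 in 75C. ENSBTAT00000020788, on chromosome 26 from 51206488 to 51246103, stood at 5.29 FPKM in 50CSH and 1.94 in 50CSN, and at 5.19 in N, 1.54 in H and 1.96 in 75C. On chromosomes 14 and 26, N and the cross with a native dam were within 2-fold of each other.

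Neighbouring loci of chromosome 5 also had the order of the dam breeds. ENSBTAT00000028193, from 110025794 to 110052844, stood at 4.79 FPKM in 50CSH and 20.2 in 50CSN, and at 4.21 in N, 15.0 in H and 20.5 in 75C. The next locus, ENSBTAT00000021058 from 110053270 to 110056430, stood at 2.97 FPKM in 50CSH and 12.7 in 50CSN, and at 1.34 in N, 9.87 in H and 9.24 in 75C. ENSBTAT00000042897, from 109308744 to 109311181, stood at 3.41 FPKM in 50CSH and 8.27 in 50CSN, and at 2.89 in N, 9.06 in H and 22.0 in 75C. In all 3, N and the cross with a native dam were the low libraries. Between 109 and 111 Mb, 50CSH was at least 2-fold the lower cross at 6 of 29 kept loci and the higher at 0. The difference was below 0 at 22 of the 29, with a median of -0.26. No other neighbouring windows of 1 Mb each held 3 or more lower and 0 higher loci, a rule that was chosen after the values were seen.

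By chromosome, the share of loci at least 2-fold apart ran from 0.562 percent on chromosome 20 to 4.68 percent on chromosome 21. The median difference of the autosomes lay between -0.02 on chromosome 4 and 0.05 on chromosome 27. The X chromosome was close to these values. Of its 292 kept loci 5 were higher and 3 lower in 50CSH, 2.74 percent together, with a median difference of 0.04. Beside the loci given above, ENSBTAT00000059485, on the X chromosome from 23716778 to 23719140, was listed at 0 in 50CSH and stood at 16.8 FPKM in 50CSN, 20.3 in N, 77.1 in H and 30.1 in 75C. A locus without an Ensembl ID, from 6817317 to 6826028, stood at 1.08 FPKM in 50CSN and 14.2 in 50CSH, and at 5.79 in N, 6.92 in H and 11.6 in 75C.

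The mitochondrial genome, which 50CSN had from Holstein and 50CSH from native dams, was read in the 17 of its 41 transcripts that were above 0. That genome encodes subunits of the respiratory chain and the RNAs of the organelle's ribosomes. Its transcripts took 6.03 percent of the summed FPKM in 50CSN and 5.82 percent in 50CSH. In 50CSH 14 of the 17 were lower and 3 higher, with differences from -0.43 to 0.24 and a median of -0.20, and none reached 2-fold. The median was also below 0, at -0.11, over the 428 kept loci of 200 FPKM or more. The lowest was ENSBTAT00000060547, at 5915 FPKM in 50CSN and 4390 in 50CSH, and at 5072 in N, 4357 in H and 5228 in 75C. At this transcript 50CSH was near H rather than near the population of its dams, and 50CSN was above both purebreds. At others of the 17, 50CSH was nearer to N. N was above H at each of the 17. The 3 transcripts higher in 50CSH than in 50CSN included ENSBTAT00000060562, at 776 FPKM in 50CSN and 918 in 50CSH. It stood at 1094 in N, 961 in H and 1142 in 75C. All 17 lie on 1 molecule and are not independent of each other.

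The differences were also counted in windows of 1 Mb, without weighing how many loci each held. Of 2554 windows of 1 Mb with a kept locus, 2234 held no locus at least 2-fold apart, 256 held 1 and 5 held 5 or more. One was an unplaced sequence, which had 5 lower and 1 higher of 8 loci and a median of -1.32. A lower locus on it, with ENSBTAT00000005129, was at 20.6 FPKM in 50CSN and 6.25 in 50CSH, and at 9.82 in N, 4.10 in H and 3.90 in 75C. Another, ENSBTAT00000050692, was at 6.81 FPKM in 50CSN and 1.95 in 50CSH, and at 4.07 in N, 1.05 in H and 2.25 in 75C. In both, 50CSN was the highest library. Loci of this sequence share a span and can share reads.

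The other 4 windows were mixed in direction. Chromosome 10 between 24 and 25 Mb had 2 higher and 4 lower of 17 loci, and chromosome 23 between 28 and 29 Mb had 1 higher and 4 lower of 36. Most of these loci of chromosome 23 share the span from 28472237 to 28685278 and can share reads. The window of chromosome 18 from 61 Mb had 3 higher and 2 lower of 15 loci, and that of chromosome 4 from 109 Mb had 3 higher and 2 lower of 32. The major histocompatibility complex of cattle, which presents antigens to T cells, lies on chromosome 23, and the genes of the T cell receptor beta chain lie on chromosome 4. The files give no gene names for the loci of these windows. In the chromosome 4 window, ENSBTAT00000031673 was at 5.80 FPKM in 50CSN and 16.0 in 50CSH, and at 6.64 in N, 3.58 in H and 12.6 in 75C. A neighbour, ENSBTAT00000028731, was at 131 FPKM in 50CSN and 45.2 in 50CSH, and at 109 in N, 86.8 in H and 49.9 in 75C. In the chromosome 23 window, ENSBTAT00000021451 stood at 3.82 FPKM in 50CSN, 18.5 in N and 1.54 in 75C, with a 0 for H and 50CSH.

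At the level of single transcripts the crosses differed more often than at the level of loci. Of 25823 kept transcripts 50CSH had 1222 higher and 1221 lower by at least 2-fold, 4.73 percent in either direction. Most were not seen in the sum over the locus, since 2024 of the 2443 transcripts belonged to loci whose sum lay within 2-fold. Among 6905 loci with at least 2 kept transcripts, 338, or 4.90 percent, had one transcript at least 2-fold higher and another at least 2-fold lower in 50CSH. The sum stayed within 2-fold at 335 of the 338, with a median absolute difference of 0.13. The authors' deposited table calls 0 transcripts at these loci. It calls only 17 of the 35653 transcripts it tested, or 0.0477 percent, so that 0 tells little about these loci.

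Among the 8 loci with the widest opposed differences, one that had the order of the sire breeds was on chromosome 3 from 65228599 to 65229815, a locus with 2 transcripts. ENSBTAT00000006704 was at 16.2 FPKM in 50CSN and 0.00443 in 50CSH, and at 18.3 in N, 0.0557 in H and 0.00941 in 75C. ENSBTAT00000044005 was at 0.00393 FPKM in 50CSN and 19.1 in 50CSH, and at 0.00633 in N, 17.8 in H and 20.7 in 75C. One transcript thus took nearly all of the locus in N and 50CSN and the other in H, 75C and 50CSH, while the sum was 16.2 FPKM in 50CSN and 19.1 in 50CSH. Another pair of transcripts, on chromosome 7 from 51052880 to 51059114, had a similar order. Its ENSBTAT00000001901 was at 9.81 FPKM in 50CSN and 0.00694 in 50CSH, and at 13.8 in N, 1.16 in H and 3.35 in 75C. Its ENSBTAT00000043198 was at 0.104 FPKM in 50CSN and 10.2 in 50CSH, and at 0.0597 in N, 12.05 in H and 8.18 in 75C.

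The order of the dam breeds appeared on the X chromosome from 23835287 to 23861394, at 2 transcripts that share ENSBTAT00000025996. One was at 16.04 FPKM in 50CSN and 0.0252 in 50CSH, and at 0.101 in N, 29.98 in H and 0.0706 in 75C. The other was at 0.0632 FPKM in 50CSN and 16.04 in 50CSH, and at 29.9 in N, 2.67 in H and 22.4 in 75C. In this pair the cross with a Holstein dam resembled H and the cross with a native dam resembled N. The whole locus summed to 66.6 FPKM in 50CSN and 61.8 in 50CSH.

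Other exchanges set one cross against all other libraries. On chromosome 11 from 102352902 to 102356457, a transcript with ENSBTAT00000018807 was at 40.9 FPKM in 50CSH and 0.108 in 50CSN, and at 30.2 in N, 31.8 in H and 25.6 in 75C. Its counterpart with the same ID was at 24.4 FPKM in 50CSN and at 0.669 FPKM or less in the other libraries. Here 50CSN stood alone, within a locus that summed to 121 FPKM in 50CSN and 137.3 in 50CSH. In a span of chromosome 10 from 8087284 to 8342743, ENSBTAT00000026917 was at 19.1 FPKM in 50CSN and 0.0128 in 50CSH, and at 16.8 in N, 15.3 in H and 17.9 in 75C. ENSBTAT00000056633 of that locus was at 16.7 FPKM in 50CSH and at 0.123 FPKM or less elsewhere. Here 50CSH stood alone.

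In the remaining examples 75C or a purebred held both forms. In a span of chromosome 25 from 1045561 to 1227781, ENSBTAT00000004206 stood at 15.5 FPKM in 50CSH, 7.21 in 75C and 0.0182 or less in the others. Its partner ENSBTAT00000047618 was listed at 0 in 50CSH and stood at 14.5 FPKM in 50CSN, 15.2 in N, 14.4 in H and 11.8 in 75C. On chromosome 15 from 64181355 to 64194360, 2 transcripts with ENSBTAT00000009126 exchanged 15.8 FPKM in 50CSN for 33.3 FPKM in 50CSH, with each at 1.77 FPKM or less in the other libraries. They were a minor part of a locus that summed to 154 FPKM in 50CSN and 207 in 50CSH. On chromosome 7 from 19362258 to 19371913, ENSBTAT00000003167 was at 10.6 FPKM in 50CSN and 0.00592 in 50CSH, and at 6.10 in N, 35.2 in H and 4.13 in 75C. ENSBTAT00000054511 of that locus was at 0.183 FPKM in 50CSN and 14.8 in 50CSH, and at 4.07 in N, 2.70 in H and 13.2 in 75C. This pair too was a minor part of its locus, which summed to 188 FPKM in 50CSN and 181 in 50CSH.

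**Figure D5:**
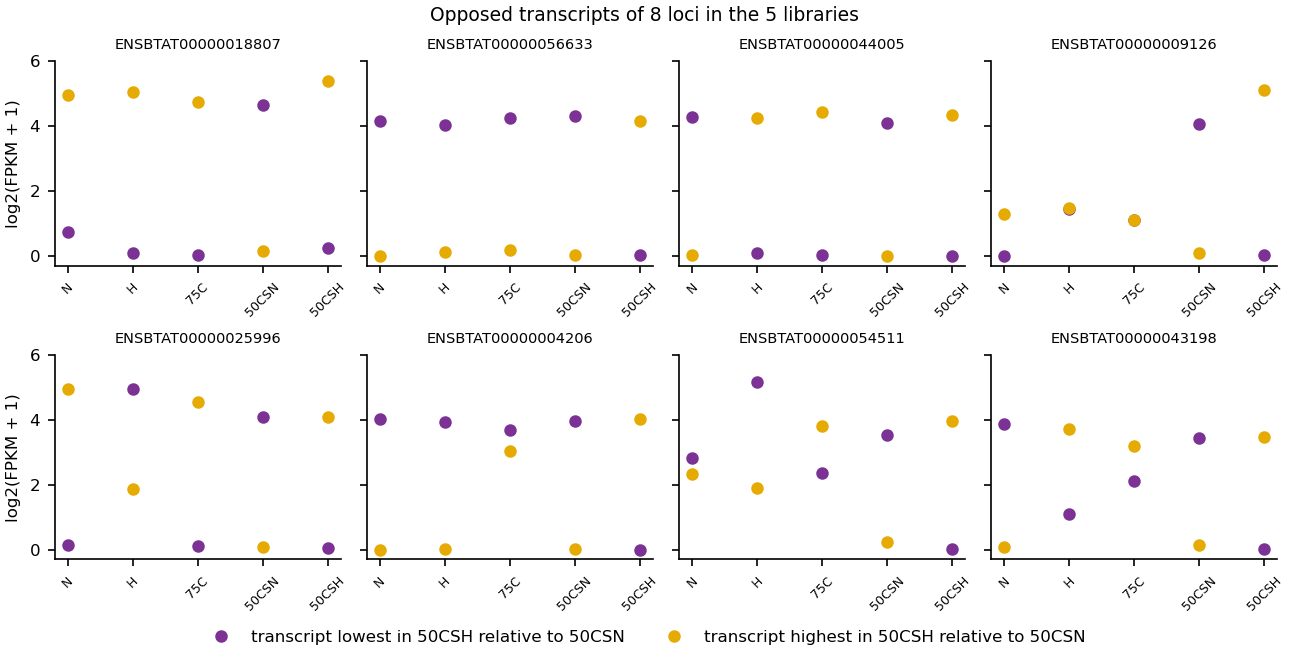
Levels in the 5 libraries, as log2(FPKM + 1), of the transcript lowest (purple) and the transcript highest (yellow) in 50CSH relative to 50CSN at 8 loci; each panel bears the Ensembl ID of the higher transcript. In all 8 panels the higher of the 2 plotted transcripts in 50CSN is near 0 in 50CSH, and the reverse.

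Among exchanged transcripts the orders of the sire and of the dam breeds were about equally frequent. The share of the higher transcript in the sum of both could be read in N and H at 332 of the 338 loci and was called high above 50 percent. N was low and H high at 58 loci, the order of the sire breeds, and N high and H low at 57, the order of the dam breeds. Both purebreds were high at 113 loci and both low at 104. The cut of 50 percent did not part the crosses at every locus. The share was 0.291 in 50CSH at a locus of the set and 0.704 in 50CSN at another. FPKM values of transcripts from 1 locus come from a model that divides shared reads among them. Whether that division differed between libraries was not tested.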

How the data were processed

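Per the labels' protocols, leukocytes were taken from the buffy coat of blood, total RNA was extracted with Trizol, and poly(A) RNA was fragmented, copied with random primers and sequenced as paired reads. The submitters' processing notes name Cufflinks 2.2.1.0 and TopHat2 2.0.9. For settings, build and annotation, the sources used here say nothing. For 72812 transcripts in 10 pairwise comparisons the authors deposited FPKM, p-values and q-values, in columns of the Cuffdiff format per the file headers. A library's FPKM was the same in each of its 4 comparisons. The authors' log2 fold column and their table of crossbreds against purebreds were not used.

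Transcripts were summed by locus, those averaging at least 1 FPKM over the crosses were kept, and log2(FPKM + 1) was compared as 50CSH minus 50CSN; this scale understates differences of low loci. The sire split and the dam split ask that the lower of 2 libraries on one side exceeds the higher on the other by 2-fold. With 1 library a side no difference between the crosses was tested. Named are the authors' calls, the 12 highest and 12 lowest loci with an Ensembl ID and above 0, the 6 highest levels opposite a 0 in either cross, 8 loci with opposed transcripts, mitochondrial transcripts and windows of 1 Mb; loci of the sire and dam splits, of the X chromosome and of one unplaced sequence were chosen after their values were seen. Some are given as a group. Members and lists were chosen with earlier results of these data known. None of 31460 Ensembl IDs matched the reference table, so 16 gene lists were not tested. Python 3.11.15, pandas 2.3.3, numpy 2.4.6 and matplotlib 3.10.9 were used.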

Additional observations from a re-analysis of the deposited data

How the results depend on the processing

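Depth in reads is unknown, and no counting error can be given. The count of loci at least 2-fold apart, 420, became 753 with a pseudocount of 0.1, 191 with a mean of at least 5 FPKM, 99 with a fold of 4 and 195 with Ensembl IDs only. For transcripts, the count of 2443 became 3947 with a pseudocount of 0.1, 3891 with no filter, 523 with a mean of at least 5 FPKM and 647 with a fold of 4. Loci with opposed transcripts, 338, became 552 with a pseudocount of 0.1 and 58 with a mean of 5 FPKM or more. The 17 calls of the authors' deposited table became 4 when both crosses had to be above 0. The sire split of 50 loci became 22 with a fold of 4 and 21 above 0 in 4 libraries, and the dam split of 31 loci became 9 and 15. These alternatives for the splits, and a limit to spans of at least 300 nt, which left 363 loci at least 2-fold apart, were chosen after seeing the data. With median-of-ratios scaling, quantile normalization, no filter, no zeros or a mean over 5 libraries, between 335 and 530 loci stood apart. The share with the sire order stayed between 45.4 and 47.0 percent. The median difference was at most 0.02 and fell to -0.00 with median-of-ratios scaling. No paired analysis was possible because each population has 1 library.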
